A study of Mus musculus with 18 samples.

Results

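The genes described here are 10 members of the epidermal growth factor receptor (EGFR) family and its surroundings, chosen by name from 24493 gene symbols. They are the receptor genes Egfr, Erbb2 and Erbb3, the ligand genes Areg, Ereg, Hbegf, Tgfa, Btc and Nrg1, and Errfi1, an inhibitor of the receptors. They were measured by RNA sequencing in tumor cells sorted from subcutaneous implants of the mouse pancreatic tumor lines 6694c2 and 6419c5 (strain C57BL/6, no treatment). In each line, a pair of clones with a knockout (KO) of Kdm3a, a gene for a demethylase of histone H3 lysine 9, was set against wild-type (WT) cells of the same line. The clones are called A (KO1 in the labels) and B (KO2). The 6 groups, 6694c2 KO clone B, 6694c2 KO clone A, 6694c2 WT, 6419c5 KO clone B, 6419c5 KO clone A and 6419c5 WT, had 3 libraries each. The labels give neither the age of the host animals, nor how the knockout was made, nor the marker used for sorting. The 3 libraries of a knockout group come from 1 clone, and both clones of a line are compared with the same 3 WT libraries. The labels do not tie the libraries to separate animals, so p-values measure the spread between libraries, which may be technical.

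EGFR, ERBB2 and ERBB3 are cell-surface tyrosine kinase receptors that act as pairs. Amphiregulin (Areg), epiregulin (Ereg), heparin-binding EGF-like growth factor (Hbegf), transforming growth factor alpha (Tgfa) and betacellulin (Btc) bind EGFR, and neuregulin 1 (Nrg1) binds ERBB3, which has little kinase activity of its own and signals mainly with ERBB2. The ligands are made as membrane proteins and cut free by sheddases. In the pancreas this system takes part in the formation of ductal lesions from acinar cells, and in pancreatic tumors it feeds the RAS and ERK pathway.

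The deposited values are in TPM, a transcript abundance scaled to a fixed total. They correct for transcript length but hold no read numbers, so the sequencing depth is unknown. Between 12213 and 13590 genes reached 1 TPM in a library, and libraries of a group correlated at 0.970 to 0.994 across genes (Pearson, log2(TPM + 1)). All 10 family genes passed the filter of a mean of at least 1 TPM that left 13422 genes for testing. Kdm3a itself fell in both lines and was still detected in every knockout library. It stood at 28.8, 30.2 and 25.2 TPM in 6694c2 clone B, 26.2, 26.4 and 29.8 in clone A and 39.9, 38.9 and 67.6 in WT (-0.75 on the log2 scale, limma adjusted p = 0.00910). In 6419c5 it had 12.3, 18.8 and 13.5 TPM in clone B, 21.6, 24.6 and 21.6 in clone A and 38.2, 24.1 and 32.9 in WT (-0.75, limma adjusted p = 0.0185). In that line clone B was called (-1.04, limma adjusted p = 0.00306), while clone A was not (-0.45, adjusted p = 0.299) and overlapped WT. The 6419c5 call was lost without WT replicate 1 (-0.60, limma adjusted p = 0.113) or WT replicate 3 (-0.71, adjusted p = 0.0742). It was also lost without the 3 libraries described below as standing apart. The 12 epithelial markers summed to 5525 to 12586 TPM in the 18 libraries. Markers of other cells were also present, and all 10 macrophage markers were above 0 in every library. The macrophage markers summed to 415 to 3383 TPM in 6694c2 clone B, 3238 to 6171 in clone A and 137 to 1714 in WT. In 6419c5 it was 205 to 427 TPM in clone B, 2289 to 8161 in clone A and 1217 to 7516 in WT. Of the 18 libraries, 3 were taken, without a fixed rule, as standing apart from their groups by markers of other cells. These were 6694c2 clone B replicate 3 by macrophage and fibroblast markers, 6694c2 clone A replicate 1 by endothelial markers and 6419c5 WT replicate 3 by macrophage markers. Other groups were spread as well. Macrophage markers summed to 552, 1714 and 137 TPM in 6694c2 WT and to 2289, 8161 and 6389 TPM in 6419c5 clone A. In such bulk samples, fewer cells of a type and less RNA per cell cannot be told apart.

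Promoter sequences are shown for Egfr, called in 6694c2, Areg, called in both lines, and Errfi1, called in 6419c5. These are not all of the called members. Erbb3 was also called in both lines, and Erbb2, Hbegf and Nrg1 in 6694c2, and their sequences are not shown. The sequences are the 250 bases before an annotated transcription start (RefSeq, build GRCm38.p6, plus strand, 5′ to 3′), at chr11:16751953-16752202 for Egfr, chr5:91139349-91139598 for Areg and chr4:150854820-150855069 for the downstream start of Errfi1. Capitals mark matches, on either strand, to 6 motifs.
Egfr: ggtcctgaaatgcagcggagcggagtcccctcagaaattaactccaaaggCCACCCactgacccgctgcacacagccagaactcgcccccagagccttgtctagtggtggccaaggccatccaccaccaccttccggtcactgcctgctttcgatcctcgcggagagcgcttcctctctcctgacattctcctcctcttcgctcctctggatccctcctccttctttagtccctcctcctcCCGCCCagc
Areg: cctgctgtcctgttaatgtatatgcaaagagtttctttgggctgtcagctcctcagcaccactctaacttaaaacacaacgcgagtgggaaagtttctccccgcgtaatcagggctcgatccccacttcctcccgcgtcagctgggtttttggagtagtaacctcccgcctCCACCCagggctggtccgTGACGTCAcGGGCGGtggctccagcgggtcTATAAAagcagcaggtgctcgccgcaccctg
Errfi1: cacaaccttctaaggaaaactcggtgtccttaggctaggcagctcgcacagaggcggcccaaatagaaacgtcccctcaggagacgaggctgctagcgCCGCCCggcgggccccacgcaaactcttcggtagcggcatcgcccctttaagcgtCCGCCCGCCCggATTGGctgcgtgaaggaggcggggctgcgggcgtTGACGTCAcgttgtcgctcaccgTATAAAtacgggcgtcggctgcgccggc
The motifs were the AP-1 site TGANTCA, the cyclic AMP response element TGACGTCA, the CACCC box CCACCC, the GC box GGGCGG, the CCAAT box CCAAT and the TATA box TATAAA, and overlapping matches were all counted. In windows of 300 bases that reach 50 bases past the start, Areg and the downstream start of Errfi1 each held 1 cyclic AMP response element, a motif found in 1.79% of 32851 RefSeq promoter windows, and 1 TATA box, found in 13.6%. The Egfr window held neither of them, and had 1 CACCC box (31.5% of windows) and 1 GC box (35.7%). The AP-1 site (7.81% of windows) was in none of the windows of the 6 family genes examined (Egfr, Erbb2, Areg, Tgfa, Btc and Errfi1), and the CCAAT box (37.4%) was in the downstream Errfi1 window and in that of Erbb2. The window of the upstream start of Errfi1 held none of the 6 motifs. A match is a description of the letters, not a binding site.

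Comparing the mean of both knockout clones with WT in each line asks which family genes moved with the knockout of Kdm3a. In 6694c2, 5 of the 10 genes fell (Egfr, Erbb2, Erbb3, Areg and Hbegf) and 1 rose (Nrg1) at a limma adjusted p under 0.05. In all 13422 genes, 20.4% were called in that comparison, 14.7% higher and 5.79% lower. In 6419c5, 3 of the 10 fell (Areg, Erbb3 and Errfi1) and none rose, where 7.38% of all genes were called, 3.97% higher and 3.40% lower. The median change over the 10 genes was -0.42 in 6694c2 and -0.44 in 6419c5 on the log2(TPM + 1) scale, a scale that understates changes of low genes, against medians over all genes of 0.15 and 0.01. The 6694c2 median over all genes depended on the scaling of the libraries, at -0.03 with median-of-ratios scaling and -0.05 with quantile normalization. The calls split into 1967 higher and 777 lower as deposited. They split into 1025 and 1795 with median-of-ratios scaling, 866 and 1614 with quantile normalization, and 1331 and 1194 with the 20 most abundant genes removed. Of the 12 epithelial markers tested, 6 fell in each line. In 6694c2, 5 of 6 neutrophil, 4 of 5 T and NK cell, 4 of 9 fibroblast and 3 of 9 endothelial markers tested rose, and in 6419c5 none of these lists had a called gene. The 6694c2 clones differed in this. Against WT, clone A had 5, 4, 8 and 7 of these markers called higher, and clone B 1, 2, 0 and 0. Of 10 macrophage markers, 0 were called over both clones in either line (medians 1.65 in 6694c2 and -1.09 in 6419c5). Against WT, 8 rose in 6694c2 clone A and all 10 fell in 6419c5 clone B. None was called in 6694c2 clone B or 6419c5 clone A. Their part in the changes of the family genes was not tested.

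**Figure D1:**
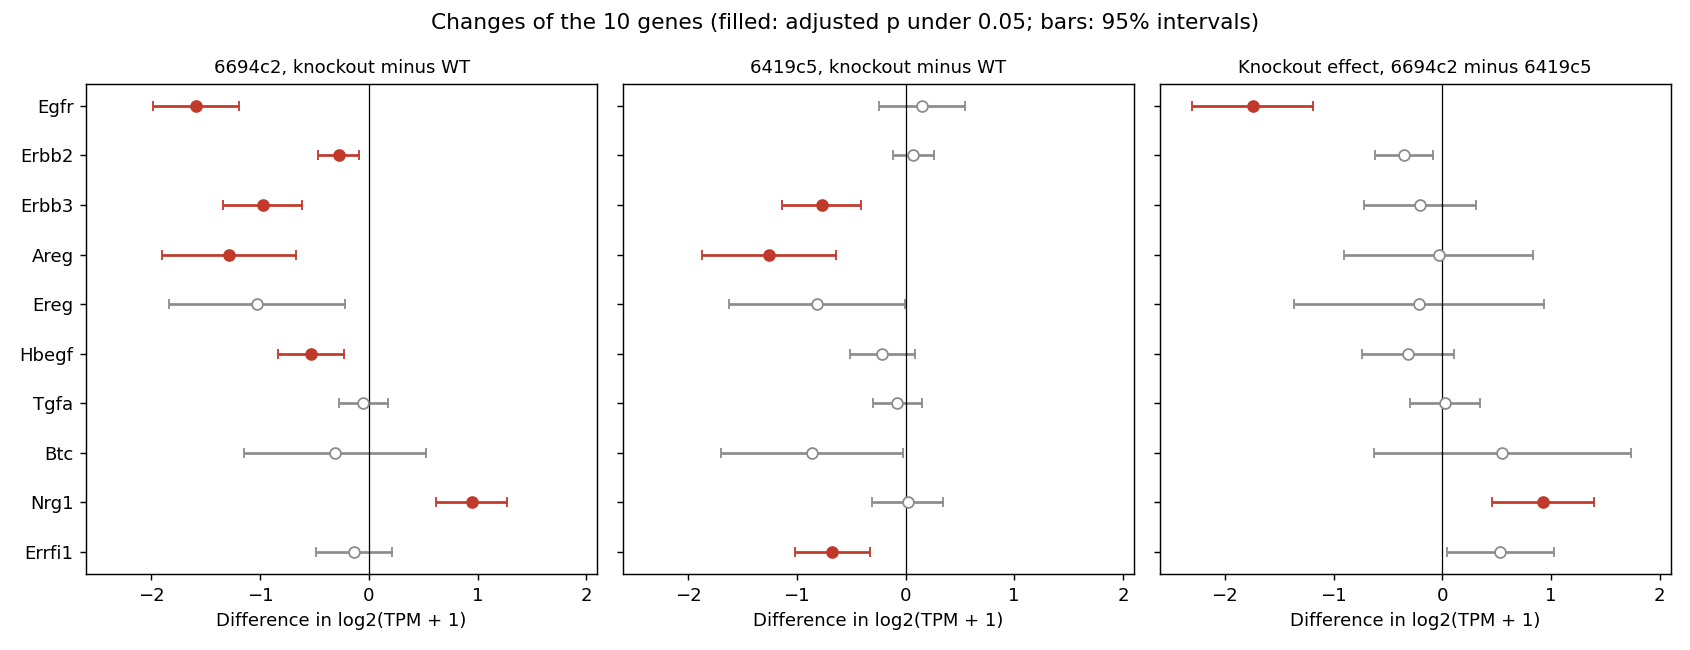
Log2 change of the 10 family genes with its 95% confidence interval (x axis), by gene (y axis), for the knockout clones minus WT in 6694c2, the same in 6419c5, and the 6694c2 effect minus the 6419c5 effect. Egfr is at -1.59, 0.15 and -1.74, and Nrg1 is at 0.94, 0.02 and 0.93.

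Egfr, which encodes the EGF receptor (chr11:16752203-16918158, plus strand), fell in both knockout clones of 6694c2, and the effect differed from that in 6419c5, where it was not called. In 6694c2 it stood at 5.50, 5.76 and 5.64 TPM in clone B, 3.94, 9.38 and 7.38 TPM in clone A and 17.5, 19.7 and 24.5 TPM in WT. All 6 knockout libraries lay below all 3 WT libraries, with a gap between 9.38 and 17.5 TPM; of all genes, 4.89% showed this pattern. The change over both clones was -1.59 (SE 0.18, 95% interval -1.99 to -1.20, limma adjusted p = 2.54e-05). In 6419c5, Egfr was at 22.0, 20.6 and 19.6 TPM in clone B, 21.5, 21.8 and 23.1 TPM in clone A and 24.4, 17.2 and 16.8 TPM in WT, and the knockout libraries lay within the WT range. The 6419c5 change was 0.15 (95% interval -0.24 to 0.55, limma adjusted p = 0.767). The knockout effect of 6694c2 minus that of 6419c5 was -1.74 (SE 0.26, limma adjusted p = 0.00103). In order of level, 6419c5 clone A had 22.1 ± 0.824 TPM (mean ± SD, n = 3), 6419c5 clone B 20.7 ± 1.16, 6694c2 WT 20.5 ± 3.57 and 6419c5 WT 19.5 ± 4.26, and each of these neighbours overlapped the next. Below a gap followed 6694c2 clone A with 6.90 ± 2.76 TPM and clone B with 5.63 ± 0.133, which overlapped each other.

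The Egfr change in 6694c2 kept its call with any 1 of the 18 libraries left out. Without the libraries that stood apart, an alternative chosen after seeing the data, the change in 6694c2 was -1.44 (limma adjusted p = 2.32e-05), and with the macrophage level of each library as a covariate it was -1.46 (limma adjusted p = 0.000206). Clone B replicates 1 and 2 had summed macrophage markers of 415 and 425 TPM, within the WT range. Their fibroblast markers summed to 130 and 111 TPM, below the WT range of 156 to 273 TPM. Their other immune and endothelial markers were above WT. Neutrophil markers summed to 34.2 and 28.3 TPM in these libraries and 9.96 to 18.3 TPM in WT, T and NK cell markers to 9.38 and 9.07 TPM and 1.80 to 3.41 TPM in WT, and endothelial markers to 18.1 and 19.2 TPM and 11.2 to 15.3 TPM in WT. Keratinocyte markers had a lower summed TPM in the knockouts of 6694c2. They summed to 44.9 to 49.5 TPM in clone B, 66.9 to 85.8 in clone A and 131 to 152 in WT. Of the 4 tested, 0 were called over both clones. Their median log2 change against WT was 0.05 in clone A, with 0 called. In clone B it was -0.91, with 1 called lower. The lower sum in clone A was therefore not a fall across the list. In 6419c5 they summed to 9.59 to 14.5 TPM in clone B, 13.2 to 65.6 in clone A and 30.8 to 36.2 in WT. The part of these cells in the Egfr change was not tested. Egfr in 6694c2 clone B replicates 1 and 2 was 5.50 and 5.76 TPM.

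Erbb2, the receptor without a known ligand of its own (chr11:98412470-98437716, plus strand), changed less. It was at 46.8, 49.2 and 43.0 TPM in clone B, 39.7, 38.2 and 35.6 TPM in clone A and 50.8, 54.2 and 48.0 TPM in WT of 6694c2. All 3 libraries of clone A lay below all of the WT libraries, while those of clone B overlapped WT. The change in 6694c2 was -0.28 (SE 0.089, limma adjusted p = 0.0399). It lost its call when any of 8 single libraries was left out (limma adjusted p of 0.0518 to 0.146), namely replicates 1 and 3 of 6694c2 clone B, 2 and 3 of clone A, 1 and 2 of WT, and 1 and 3 of 6419c5 clone B. It also lost it with the macrophage covariate (limma adjusted p = 0.0925) and with no mean-variance trend. In 6419c5 it ranged from 50.8 to 70.3 TPM over all groups, and its change of 0.07 did not pass (limma adjusted p = 0.771). An exon of Erbb2 overlaps Mien1 on the opposite strand, and the labels do not say whether counting used the strand, so its level is uncertain to that extent.

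Erbb3, which encodes the neuregulin receptor with weak kinase activity (chr10:128567523-128589652, minus strand), fell in both lines. In 6694c2 it was at 11.4, 10.7 and 11.0 TPM in clone B, 10.6, 7.56 and 7.24 TPM in clone A and 18.8, 24.0 and 17.3 TPM in WT. All knockout libraries lay below all WT libraries, as in 4.89% of all genes. The change was -0.98 (SE 0.17, limma adjusted p = 0.00103). In 6419c5 the clones parted: 9.96, 9.47 and 9.10 TPM in clone B, 15.8, 29.8 and 26.8 TPM in clone A and 25.6, 29.6 and 23.9 TPM in WT. Clone B lay below every WT library and clone A overlapped WT. The mean change of -0.77 (SE 0.17, limma adjusted p = 0.0108) combines -1.38 in clone B (limma adjusted p = 0.000236) with -0.17 in clone A (adjusted p = 0.765). The mean change was -0.69 without WT replicate 2 (limma adjusted p = 0.0671). With the macrophage covariate Erbb3 kept its call in both lines, at -1.13 in 6694c2 (limma adjusted p = 0.000671) and -0.675 in 6419c5 (adjusted p = 0.0179). The difference between lines was -0.21 (95% interval -0.72 to 0.31, limma adjusted p = 0.651).

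**Figure D2:**
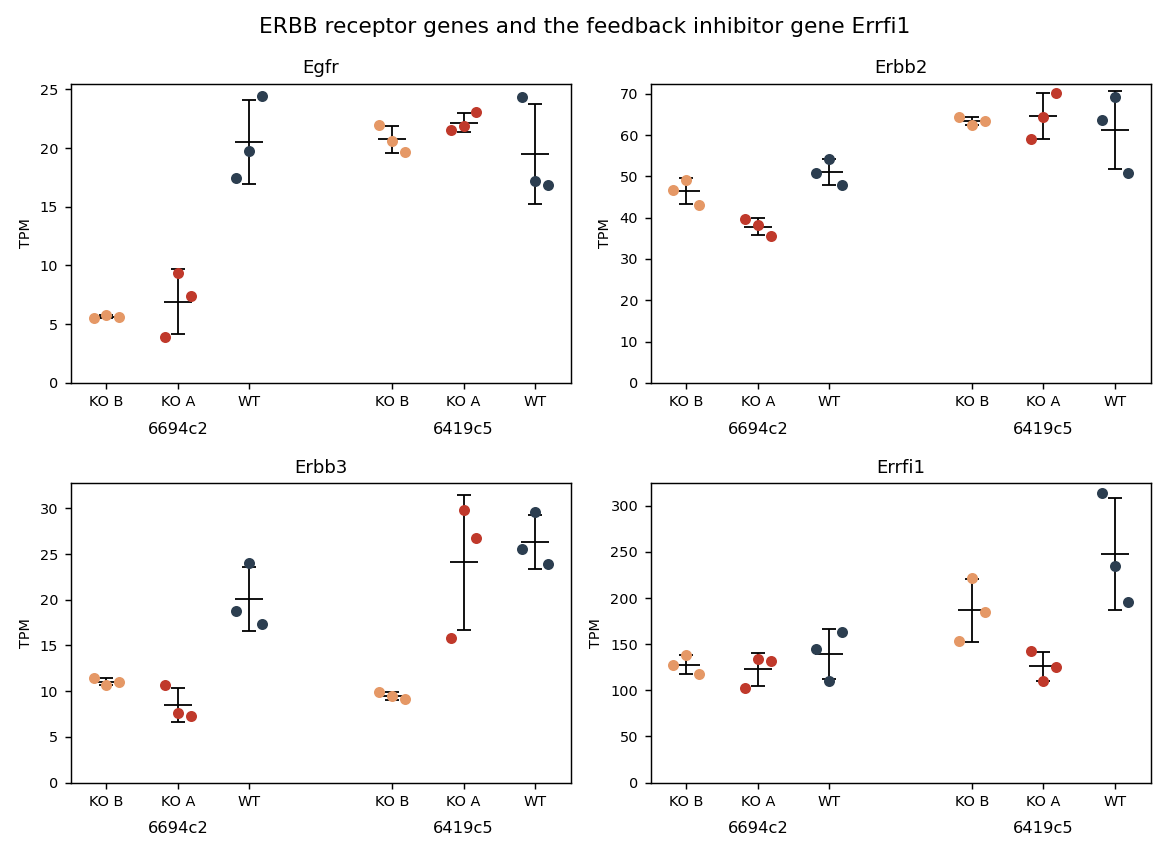
TPM (y axis) of Egfr, Erbb2, Erbb3 and Errfi1 in each library (points), by group (x axis), with horizontal bars for the mean and error bars for the SD of 3 libraries. Egfr of the 6694c2 knockout libraries lies between 3.94 and 9.38 TPM, below those of all other groups, and Erbb3 of 6419c5 clone B lies between 9.10 and 9.96 TPM.

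Areg, an EGFR ligand (chr5:91139599-91148432, plus strand), was the member that fell with no overlap between knockout and WT libraries in both lines. In 6694c2 it was at 31.3, 29.8 and 16.0 TPM in clone B, 12.3, 25.4 and 34.4 TPM in clone A and 58.7, 52.2 and 65.4 TPM in WT. In 6419c5 it was at 16.2, 29.7 and 22.8 TPM in clone B, 19.3, 12.9 and 13.7 TPM in clone A and 51.4, 34.8 and 51.4 TPM in WT. All 6 knockout libraries lay below all 3 WT libraries in each line, with clone A of 6694c2 the most spread of the 4 clones. Of all genes, 4.89% did so in 6694c2 and 2.60% in 6419c5. No member lay above WT in all 6 knockout libraries of 6419c5, as 4.60% of all genes did. The changes were -1.29 in 6694c2 (SE 0.29, limma adjusted p = 0.00610) and -1.25 in 6419c5 (SE 0.29, limma adjusted p = 0.0142). The difference between them was -0.03 (95% interval -0.91 to 0.84, limma adjusted p = 0.969). With the macrophage covariate the changes were -0.98 in 6694c2 (limma adjusted p = 0.0277) and -1.45 in 6419c5 (adjusted p = 0.00313). Without the 3 libraries that stood apart they were -0.94 (limma adjusted p = 0.0107) and -1.16 (adjusted p = 0.00887). The 6419c5 call was lost without WT replicate 1 (-1.16, limma adjusted p = 0.0688) or WT replicate 3 (-1.16, adjusted p = 0.0665).

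Hbegf, the ligand that had the highest level of the 6 in every group, fell in 6694c2. It stood at 258, 270.5 and 188 TPM in clone B, 139, 202 and 204 TPM in clone A and 318, 255 and 324 TPM in WT. Clone A lay below all WT libraries, and clone B had 2 of 3 libraries within the WT range. The change was -0.53 (SE 0.14, limma adjusted p = 0.0155). It did not pass without WT replicate 1 (-0.48, limma adjusted p = 0.0614) or WT replicate 3 (-0.47, adjusted p = 0.0565). It also did not pass with the macrophage covariate (-0.30, limma adjusted p = 0.0527) or with the fit on 1 line only. In 6419c5 it was at 93.1 ± 5.23 TPM in clone B, 60.7 ± 4.45 TPM in clone A and 87.8 ± 11.1 TPM in WT (SD, n = 3 each). Clone A, at 57.2 to 65.7 TPM, lay below all WT libraries at 77.6 to 99.7 TPM, and clone B overlapped WT. The change of -0.22 over both clones did not pass (limma adjusted p = 0.467), and passed with the macrophage covariate (-0.36, adjusted p = 0.0324). The change in clone A was -0.52, not called as deposited. It was called with median-of-ratios scaling, with the fit on 1 line only, without the 3 libraries that stood apart and without 6694c2 clone A replicate 1.

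Nrg1, the ligand of ERBB3, rose in 6694c2, which was the opposite direction to the 5 members that fell there. It was at 5.90, 4.80 and 5.74 TPM in clone B, 7.33, 9.52 and 9.43 TPM in clone A and 2.84, 3.70 and 2.86 TPM in WT. All knockout libraries lay above all WT libraries, as in 13.2% of all genes. The change was 0.94 (SE 0.15, limma adjusted p = 0.000613). In 6419c5, clone B had 2.01, 1.87 and 2.08 TPM, clone A 3.35, 6.00 and 3.88 TPM and WT 2.66, 2.53 and 3.68 TPM, and the mean change was 0.02 (limma adjusted p = 0.982). Clone B lay below all WT libraries and clone A overlapped them. The difference between lines was 0.93 (SE 0.22, limma adjusted p = 0.0172). Its call was lost with quantile normalization (0.53, limma adjusted p = 0.202) and with the macrophage covariate (0.66, adjusted p = 0.0768). It was also lost without 6419c5 WT replicate 3 (0.80, adjusted p = 0.0576) and without the 3 libraries that stood apart (0.84, adjusted p = 0.061). In 6694c2, every clone A library had more Nrg1 than every clone B library, while macrophage marker sums overlapped. Clone B replicate 3, with Nrg1 of 5.74 TPM, had a macrophage sum of 3383 TPM, and clone A replicate 2 had 3238 TPM. Clone B replicates 1 and 2, with macrophage markers within the WT range, had 5.90 and 4.80 TPM, above the 3 WT libraries, and their neutrophil, T and NK cell and endothelial markers were above the WT range as well. The part of these cells in the Nrg1 change was not tested. With the macrophage covariate the 6694c2 change was 0.78 (limma adjusted p = 0.00345).

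Ereg, Tgfa and Btc were not called in either line as deposited. Ereg, at 4.74 ± 1.12 TPM in clone B, 3.32 ± 0.996 in clone A and 10.2 ± 6.96 in WT of 6694c2 (SD, n = 3 each), was below WT in all 6 knockout libraries of that line, as were 4.89% of all genes. The gap was narrow, between 5.90 TPM in the highest knockout library and 6.17 TPM in the lowest WT library. The change of -1.03 (limma adjusted p = 0.0677) passed with median-of-ratios scaling (-1.21, limma adjusted p = 0.0203) and quantile normalization (-1.34, adjusted p = 0.0123). In 6419c5 it was at 4.81 ± 2.29, 3.21 ± 1.12 and 8.47 ± 5.81 TPM in clone B, clone A and WT (-0.81, limma adjusted p = 0.256). In 6694c2 it also passed with the 20 most abundant genes removed (-1.16, adjusted p = 0.0494) and without 6419c5 WT replicate 1 (adjusted p = 0.0392). Its WT means rested on single high libraries, of 18.3 TPM in 6694c2 and 15.1 TPM in 6419c5. Tgfa stood at 57.2 ± 7.06 TPM in clone B, 38.0 ± 1.61 in clone A and 48.3 ± 3.51 in WT of 6694c2. In 6419c5 it was at 38.7 ± 2.03 TPM in clone B, 32.7 ± 4.10 in clone A and 37.8 ± 5.97 in WT. Its changes of -0.05 (95% interval -0.28 to 0.18) and -0.07 (-0.30 to 0.15) did not pass (limma adjusted p = 0.766 and 0.809). The 6694c2 change combined -0.34 in clone A with 0.23 in clone B, neither called as deposited. Clone A (36.5 to 39.7 TPM) lay below all WT libraries (44.3 to 50.9 TPM), and clone B overlapped WT. The Tgfa change in clone A was called with median-of-ratios scaling, quantile normalization, the 20 most abundant genes removed and the replicate block. It was also called when some single libraries were left out. In clone B it was called with the macrophage covariate. Btc had 52.0 ± 18.4 TPM in clone B, 33.0 ± 9.23 in clone A and 54.4 ± 29.7 in WT of 6694c2 (-0.31, limma adjusted p = 0.611). In 6419c5 it had 14.2 ± 8.16 TPM in clone B, 6.02 ± 1.20 in clone A and 18.8 ± 11.3 in WT (-0.86, limma adjusted p = 0.239). Both clones overlapped WT in 6694c2. In 6419c5, clone A had 7.36, 5.63 and 5.06 TPM of Btc, below all WT libraries at 31.6, 10.2 and 14.6 TPM, and clone B overlapped WT. The Btc change in that clone A was -1.36, not called as deposited and called with quantile normalization. With the macrophage covariate, Ereg (-1.14, limma adjusted p = 0.0307) and Btc (-1.22, adjusted p = 0.0215) were called in 6419c5. Exons of Ereg, Tgfa and Nrg1 also overlap genes on the opposite strand, so their levels are uncertain too, to an extent that was not measured.

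**Figure D3:**
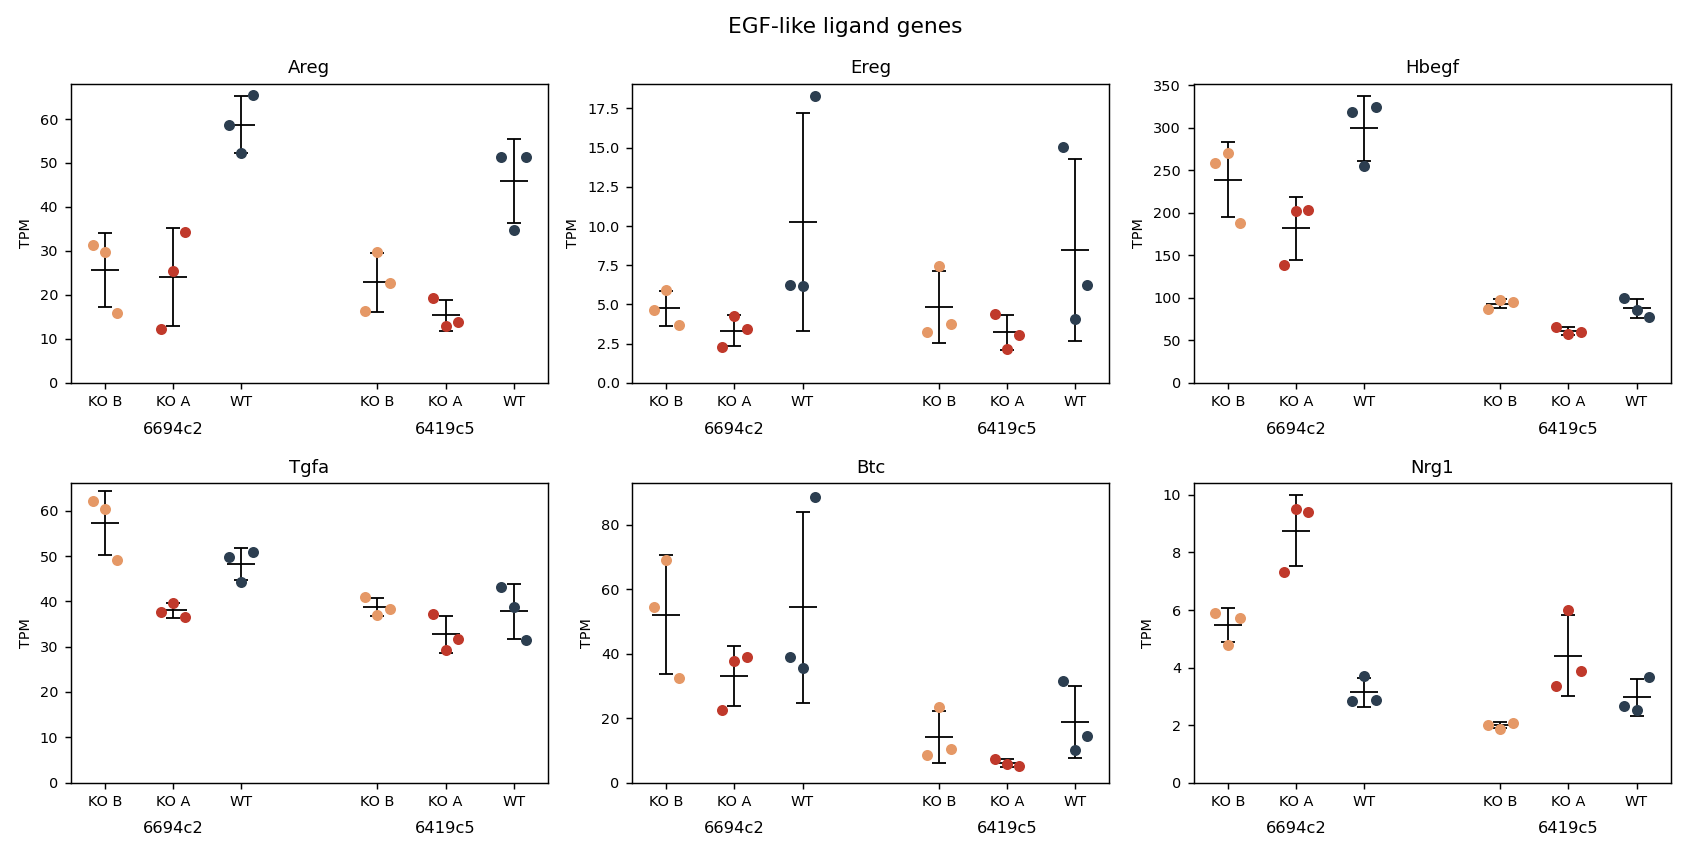
TPM (y axis) of the 6 ligand genes in each library (points), by group (x axis), with horizontal bars for the mean and error bars for the SD of 3 libraries. Areg is below WT in all knockout libraries of both lines, and Nrg1 of 6694c2 lies between 4.80 and 9.52 TPM in knockout libraries and between 2.84 and 3.70 TPM in WT.

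Errfi1, which encodes an inhibitor that binds the EGFR kinase domain and is itself induced by ERK signals (chr4:150853919-150868892, plus strand), fell in 6419c5. It was at 154, 222 and 185 TPM in clone B, 142, 111 and 125 TPM in clone A and 314, 234 and 195 TPM in WT. Clone A lay below all WT libraries and clone B overlapped the lowest WT library. The change was -0.67 (SE 0.16, limma adjusted p = 0.0191), and its call was lost without WT replicate 1 (-0.49, limma adjusted p = 0.127) or WT replicate 2 (-0.70, adjusted p = 0.0562). The call was also lost with the fit on 1 line only. In 6694c2 Errfi1 stood at 128 ± 10.7 TPM in clone B, 123 ± 17.8 TPM in clone A and 139 ± 26.9 TPM in WT (-0.14, limma adjusted p = 0.581). The lines differed in the knockout effect by 0.53 (95% interval 0.04 to 1.03, limma adjusted p = 0.169), which passed with the macrophage covariate (0.96, adjusted p = 0.0079).

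Of the 10 members, 2 had a called difference between the lines, Egfr and Nrg1, where 8.71% of all genes did. The 2 lines also differed before any knockout. In WT cells, Hbegf averaged 299 ± 38.6 TPM in 6694c2 and 87.8 ± 11.1 TPM in 6419c5 (SD, n = 3 each). WT 6694c2 also had higher Tgfa (0.36, limma adjusted p = 0.0271) and Btc (1.51, adjusted p = 0.0134) than 6419c5, and lower Errfi1 (-0.82, adjusted p = 0.00237). The Tgfa and Btc calls were lost with the macrophage covariate (0.11, limma adjusted p = 0.326, and 0.74, adjusted p = 0.151). The Tgfa call was also lost without 6419c5 WT replicate 3, 6694c2 WT replicate 1 or 6694c2 WT replicate 3, and without the 3 libraries that stood apart. The Btc call was lost without 6419c5 WT replicate 2 or 6694c2 WT replicate 3. The Hbegf difference was 1.76 (SE 0.16, limma adjusted p = 6.90e-07). That made 4 of 10 genes, against 46.3% of all genes called between the WT groups. Egfr overlapped between the WT groups, with a difference of 0.08 (95% interval -0.38 to 0.54, limma adjusted p = 0.789).

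Each clone against the WT of its line showed how far the clones matched. Clone B of 6694c2 had 4 members called (Egfr -1.69, Erbb3 -0.80, Areg -1.21 and Nrg1 0.65, limma adjusted p of 7.23e-05 to 0.0242), where 14.5% of all genes were called. Clone A of 6694c2 had 6, where 21.7% of all genes were called. These were Egfr -1.50, Erbb3 -1.16, Areg -1.36 and Nrg1 1.24, with Erbb2 at -0.42 and Hbegf at -0.73. Clone B of 6419c5 had Erbb3 alone (-1.38), and its Areg change of -0.99 did not pass (limma adjusted p = 0.0513). That Areg change passed under 6 of the 11 alternatives, such as the macrophage covariate (-1.56, limma adjusted p = 0.0182), and in 5 of the 18 fits with 1 library left out. With the covariate, Ereg, Btc and Errfi1 were called in that clone too (limma adjusted p of 0.00419 to 0.0478). Of all genes 18.9% were called in that clone. Clone A had Areg (-1.52, limma adjusted p = 0.0143) and Errfi1 (-0.95, adjusted p = 0.00675), where 4.79% of all genes were called. Some of these calls rested on single libraries. In clone B of 6694c2, the Areg call was lost without clone B replicate 3 (-0.92), WT replicate 1 or WT replicate 3, and with the fit on 1 line only. The Nrg1 call in that clone was lost without clone B replicate 1 or 3 or WT replicate 1 or 3. The Erbb3 call in that clone was lost without its replicate 2 or WT replicate 2. In clone A of 6419c5, the Areg call was lost without its replicate 2 or 3 or WT replicate 1. In clone A of 6694c2, Areg (-0.85, limma adjusted p = 0.138), Hbegf (-0.35, adjusted p = 0.104) and Erbb2 (-0.37, adjusted p = 0.0796) were not called with the macrophage covariate. Nrg1 in clone B of 6694c2 was also not called with median-of-ratios scaling (0.47), quantile normalization (0.36), the 20 most abundant genes removed (0.59) or without the 3 libraries that stood apart (0.62), at limma adjusted p of 0.0523 to 0.310. The 2 clones of a line share their WT libraries, so these counts are not independent. Clone B minus clone A of 6419c5 had 4 called members, Erbb3 (-1.21), Nrg1 (-0.83), Hbegf (0.61) and Errfi1 (0.56), where 26.3% of all genes were called. All 10 macrophage, all 5 skeletal muscle and 6 of 9 fibroblast markers tested were lower in that comparison. Skeletal muscle markers summed to 22.1 to 33.9 TPM in clone B, 46.1 to 121 TPM in clone A and 29.9 to 40.3 TPM in WT of 6419c5, and 4 of 5 rose in clone A against WT. Their part in the differences between the clones was not tested. Clone B minus clone A of 6694c2 had 1, Tgfa (0.57, limma adjusted p = 0.0105), against 9.53%. Of these, Errfi1 was not called without any 1 of 5 libraries (limma adjusted p of 0.0521 to 0.158), nor Hbegf without clone A replicate 2, nor Tgfa without clone B replicate 1 or 2. Errfi1 was also not called with no filter on low values, with the fit on 1 line only or with the replicate block. Nrg1 was not called with quantile normalization. None of these 5 differences was called with the macrophage covariate.

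Proportions within a library do not depend on the scaling between libraries. Egfr made up 10.97 ± 3.92% of the summed TPM of Egfr, Erbb2 and Erbb3 in 6694c2 knockouts (SD, n = 6) and 22.5 ± 4.12% in WT (n = 3). The ranges of 7.25 to 17.0% in knockouts and 20.04 to 27.2% in WT did not overlap. An exact permutation test over libraries, two-sided, gave p = 0.0119, the smallest the design allows (adjusted p = 0.0357 over 12 tests). In 6419c5 it made up 21.1 ± 1.70% in knockouts and 18.2 ± 3.33% in WT (exact p = 0.119, adjusted p = 0.179). The ratio of Egfr to Erbb2 was 0.153 ± 0.0592 in 6694c2 knockouts and 0.405 ± 0.0904 in WT (exact p = 0.0119, adjusted p = 0.0357). Areg's share of the summed TPM of the 6 ligands was lower in the knockouts of both lines. It was 7.29 ± 1.89% in 6694c2 knockouts and 12.47 ± 0.647% in WT, and 12.6 ± 1.81% in 6419c5 knockouts and 22.9 ± 4.32% in WT (exact p = 0.0119 and adjusted p = 0.0357 for each). Hbegf held 62.6 ± 0.881% of the ligand TPM in 6694c2 knockouts and 63.4 ± 4.11% in WT (exact p = 0.619). It held 51.5 ± 3.05% in 6419c5 knockouts and 43.9 ± 4.27% in WT (exact p = 0.0238, adjusted p = 0.0571). The Erbb3 share of the receptors passed in neither line. It was 16.7 ± 2.33% in 6694c2 knockouts and 21.8 ± 2.60% in WT (exact p = 0.0357, adjusted p = 0.0714), and 15.8 ± 6.87% in 6419c5 knockouts and 24.7 ± 1.93% in WT (exact p = 0.0833, adjusted p = 0.143). The ratio of summed ligand to summed receptor TPM was 5.76 ± 1.06 in 6694c2 knockouts and 5.21 ± 1.06 in WT (exact p = 0.476). In the other line it was 1.501 ± 0.470 in 6419c5 knockouts and 1.89 ± 0.331 in WT (exact p = 0.25). The permutations treat the 6 knockout libraries as exchangeable, though they come from 2 clones.

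**Figure D4:**
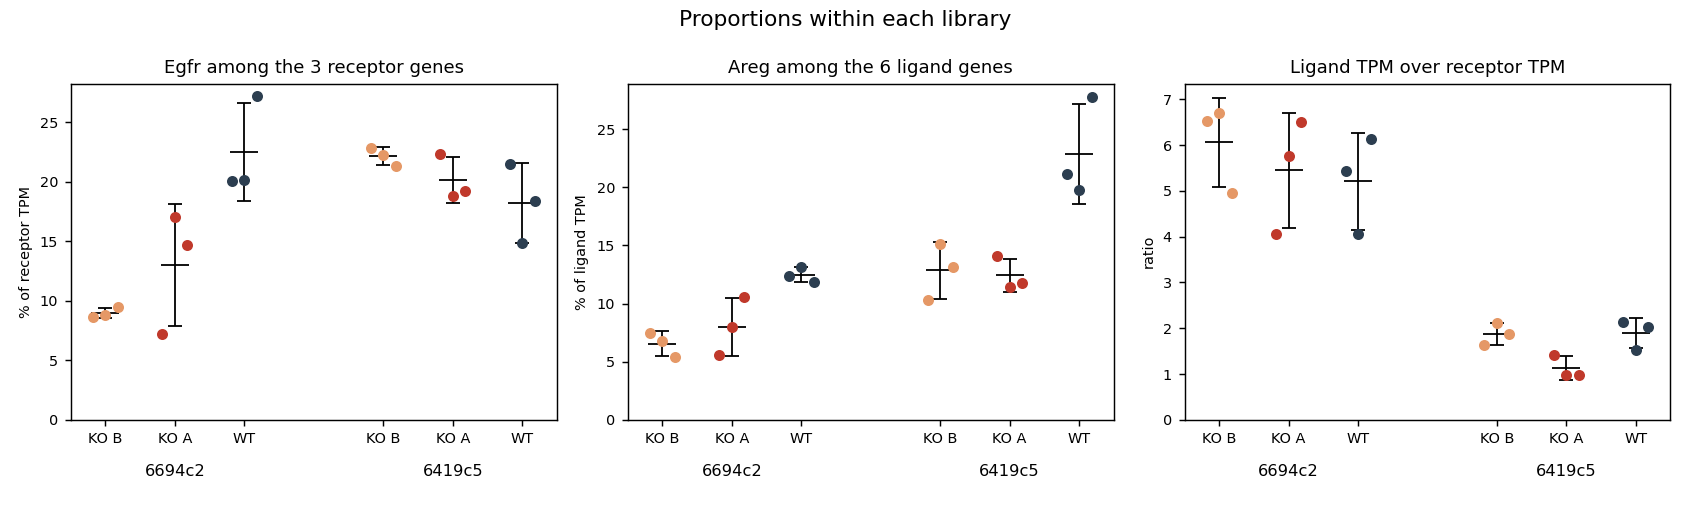
Egfr as a percentage of the summed TPM of Egfr, Erbb2 and Erbb3, Areg as a percentage of the summed TPM of the 6 ligands, and the ratio of summed ligand to summed receptor TPM (y axes), in each library (points) by group (x axis), with the mean and SD of 3 libraries. The Egfr share of the 6694c2 knockout libraries lies between 7.25 and 17.0%, below the WT libraries at 20.04 to 27.2%.

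The other genes of the family were mostly near or at 0. Erbb4, the fourth receptor, was at most 0.00674 TPM in any library, Nrg3 at most 0.0193 TPM, Epgn at most 0.308 TPM and Egf at most 0.837 TPM. Nrg2 was below the filter as well, at 0.730 ± 0.0888 TPM in clone B, 1.31 ± 0.0999 TPM in clone A and 0.269 ± 0.173 TPM in WT of 6694c2. Nrg4 was the only one tested, and its change passed in neither line (0.09 in 6694c2, limma adjusted p = 0.689, and -0.10 in 6419c5, adjusted p = 0.810). With Erbb4 at these levels, the receptor genes measured were Egfr, Erbb2 and Erbb3.

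Genes around the receptors were counted from lists of sheddases, adaptors, regulators that turn receptors down, and transcriptional targets of ERK. Their counts stand against the 20.4% of all genes called in 6694c2 and the 7.38% called in 6419c5. In 6694c2 the called share was 11.1% of the sheddases, 29.4% of the adaptors, 15.8% of the genes that turn receptors down and 40.0% of the ERK targets. Of 9 sheddases tested, 1 rose in 6694c2, Adam12 (0.71, limma adjusted p = 0.00984), and none was called in 6419c5. Of 17 adaptors and signal carriers, 1 rose and 4 fell in 6694c2 (limma adjusted p of 0.00136 to 0.0431). Gab2, a docking protein, rose by 0.56. Those that fell were Src, a cytoplasmic tyrosine kinase (-0.45), Nck2 (-0.42), Eps8 (-0.28) and Shc1 (-0.22), the last named after its value was seen. In 6419c5 only Nck2 fell (-0.30, limma adjusted p = 0.0305). Of 19 genes that turn receptors down, 3 fell in 6694c2: Cblc, a ubiquitin ligase of the Cbl family (-2.04, limma adjusted p = 1.31e-06), Lrig3 (-0.87, adjusted p = 0.00227) and Spry2, an inhibitor of ERK signals (-0.68, adjusted p = 0.00122). In that line Lrig3 was at 2.57 ± 0.523 TPM in clone B, 0.370 ± 0.389 TPM in clone A and 2.98 ± 0.436 TPM in WT, so that clone A was low and clone B overlapped WT. In 6419c5 only Cblc of these 19 genes fell (-1.09, limma adjusted p = 0.00126). Cblc stood at 1.89 ± 0.619 TPM in clone B, 3.27 ± 0.750 TPM in clone A and 13.4 ± 3.04 TPM in WT of 6694c2 (SD, n = 3 each). In 6419c5 it had 7.66 ± 0.607 TPM in clone B, 25.8 ± 6.30 in clone A and 31.1 ± 2.68 in WT, and only clone B was called against WT. Of 10 ERK targets, 4 fell in 6694c2, Dusp4 (-0.78), Spry2, Phlda1 (-0.47) and Epha2 (-0.31), and 2 in 6419c5, Dusp4 (-0.98) and Etv4 (-0.58). None rose over both clones. Against WT alone, clone B had 1 ERK target called higher in each line, and clone A had 0. Dusp4, a phosphatase that acts on ERK, had 100.4 ± 9.26 TPM in clone B, 131 ± 38.0 in clone A and 195 ± 25.3 in WT of 6694c2. In 6419c5 it had 31.6 ± 0.593 TPM in clone B, 28.9 ± 4.34 in clone A and 60.9 ± 9.87 in WT. Between the lines, Src (-0.48), Shc1 (-0.34), Cblc (-0.95) and Lrig3 (-1.002) had a lower effect in 6694c2 than in 6419c5, and Etv4 (0.62) had a higher one (limma adjusted p of 0.0171 to 0.0344). Each of these 5 differences lost its call under at least 1 alternative. Among the changes within a line, Cblc and Dusp4 in both lines, Etv4 in 6419c5, and Src, Nck2, Spry2 and Phlda1 in 6694c2 kept their call under all alternatives run. Lrig3 in 6694c2 kept its call wherever it was tested. That was 16 of the 18 fits with 1 library left out and 10 of the 11 other alternatives. Adam12 and Gab2 were not called with quantile normalization (0.33, limma adjusted p = 0.168, and 0.29, adjusted p = 0.136), nor was Gab2 with median-of-ratios scaling (0.38, adjusted p = 0.0518). Eps8 and Epha2 were not called with the macrophage covariate (-0.20, limma adjusted p = 0.143, and -0.22, adjusted p = 0.142), nor without any 1 of 8 libraries each. They also lost their calls with no filter on low values, the fit on 1 line only, no mean-variance trend and without the 3 libraries that stood apart. Eps8 lost its call with the replicate block too. Shc1 was not called with the fit on 1 line only (limma adjusted p = 0.0591). Shc1 and Adam12 were not called without 6694c2 WT replicate 2 (limma adjusted p = 0.0712 and 0.0644), nor was Nck2 of 6419c5 without any 1 of 7 libraries of that line (adjusted p of 0.0510 to 0.140).

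Over the 18 libraries, the genes whose log2(TPM + 1) went most closely with that of Egfr were Rab38 (Pearson r = 0.945), Ube2e2 (0.938) and Smoc1 (0.934). Those closest to Nrg1 were Ifitm3 (0.939), Nos2 (0.922) and Irf8 (0.918), those closest to Areg were Aldh1a3 (0.902), Irx5 (0.894) and Spef1 (0.886), and those closest to Errfi1 were Gatad1 (0.924), Agt (0.866) and Dnajc10 (0.862). The libraries share lines, clones and WT groups, so these values describe the pattern only.

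**Figure D5:**
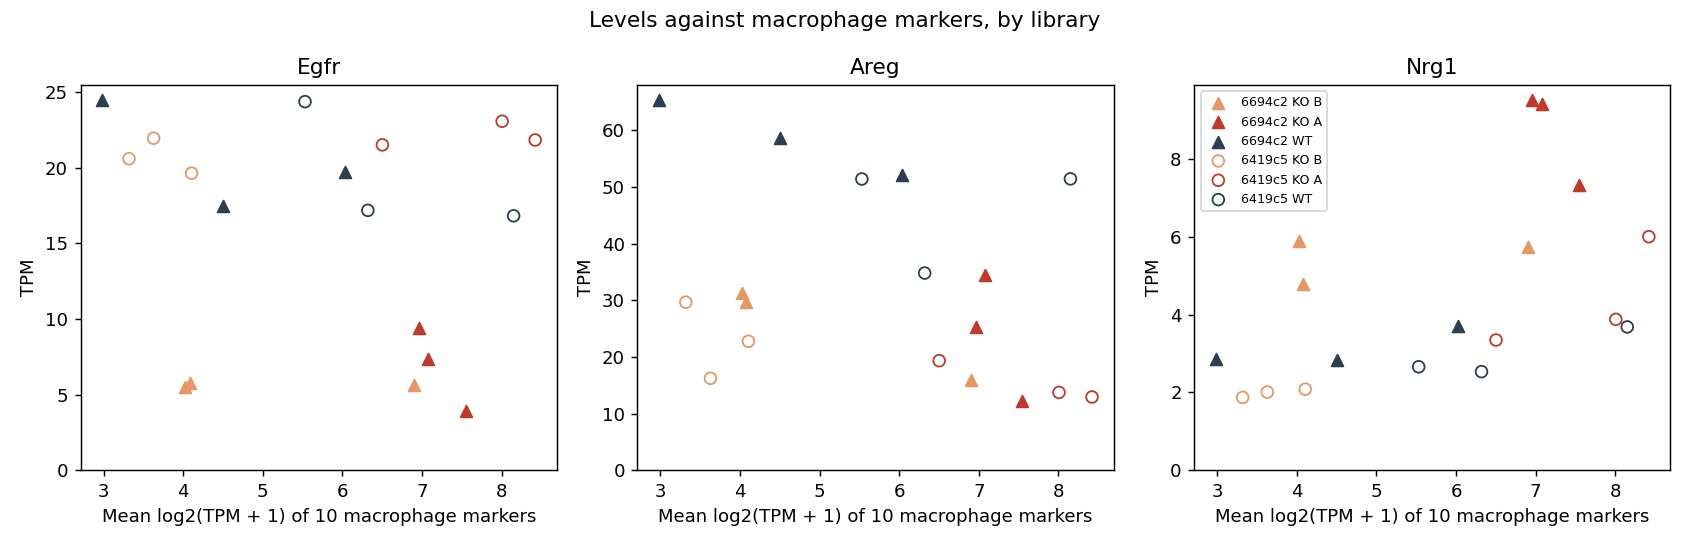
TPM (y axis) of Egfr, Areg and Nrg1 against the mean log2(TPM + 1) of 10 macrophage markers (x axis), 1 point a library, filled triangles for 6694c2 and open circles for 6419c5. In 6694c2, clone B replicates 1 and 2 lie at 4.03 and 4.08 on the x axis, within the WT range of 2.98 to 6.03, with Egfr of 5.50 and 5.76 TPM.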

How the data were processed

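RNA sequencing was done on 18 libraries of sorted mouse tumor cells, 3 in each of 6 groups. The values are TPM, deposited by the authors, made with Salmon on the mm10 build per the submitters' processing notes (version and annotation not given in the sources used here). The deposited table is named after a batch on which the labels are silent, so an adjustment between batches is unknown. Its columns name the clones by letter, and the titles by number. Letter A was read as KO1 and letter B as KO2, so a swap would exchange their names only. Depth is unknown, so no counting interval could be given.

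Of 24493 genes, the 13422 that averaged 1 TPM or more over all libraries were kept. Their log2(TPM + 1) values entered a linear model with a mean for each of the 6 groups, leaving 12 residual degrees of freedom, in limma 3.58.1 in R 4.3.3, with a mean-variance trend. Benjamini-Hochberg adjustment ran over all tested genes within a comparison, and an adjusted p under 0.05 was called. Proportions were tested by exact permutation over libraries, adjusted over 12 tests. Positions are from GENCODE M21 (GRCm38). The genes named outside the 10 members were, per list and line, up to 4 with the largest called change, and for likeness the 3 genes with the highest correlation for 4 members; Shc1 goes beyond this rule. The members and lists were chosen with earlier results of these data known. Other scalings, filters, pseudocounts, a macrophage covariate, a fit on 1 line, a replicate block and leaving out libraries were tried.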

Additional observations from a re-analysis of the deposited data

Results flagged for a closer look

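The knockout effect on Egfr differed between the lines by -1.74 on the log2(TPM + 1) scale, 6694c2 minus 6419c5 (limma adjusted p = 0.00103). The effects were -1.59 in 6694c2 and 0.15 in 6419c5.

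The knockout effect on Nrg1 differed between the lines by 0.93 (limma adjusted p = 0.0172). The effects were 0.94 in 6694c2 and 0.02 in 6419c5. The difference was not called with quantile normalization (0.53, limma adjusted p = 0.202), with the macrophage covariate (0.66, adjusted p = 0.0768), without 6419c5 WT replicate 3 (0.80, adjusted p = 0.0576), or without the 3 libraries that stood apart (0.84, adjusted p = 0.061), the last chosen after seeing the data. Nrg1 was not tested with the filter at a mean of 5 TPM.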

How the results depend on the processing

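Counts of the 10 genes called depended on the processing as follows. In 6694c2, 6 were called, and 4 to 7 under the alternatives and with single libraries left out (4 to 7). In 6419c5, 3 were called, 6 with the macrophage covariate (Ereg, Hbegf and Btc in addition), and 1 to 3 with single libraries left out (1 without WT replicate 1 and 1 without WT replicate 2). For the difference between lines, 2 were called, 2 with the macrophage covariate (Egfr and Errfi1, Nrg1 being lost), 1 with the filter at a mean of 5 TPM (where Nrg1 was not tested), 1 with quantile normalization, 1 without the 3 libraries that stood apart (chosen after seeing the data), and 1 to 3 with single libraries left out (1 without 6419c5 WT replicate 3). Between the WT groups, 4 were called, 2 with the macrophage covariate, and 2 to 5 with single libraries left out (2 without 6694c2 WT replicate 3). Single clones against WT gave 13 gene and clone pairs, 12 to 17 under the alternatives and 11 to 15 with single libraries left out. Clone B against clone A gave 5 gene and line pairs, 0 with the macrophage covariate, and 3 to 7 with single libraries left out (3 without 6694c2 clone B replicate 1). Errfi1 in clone B minus clone A of 6419c5, at 0.56, was -0.085 with the macrophage covariate; the cause of these changes was not tested.

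Without the 3 libraries that stood apart, 6 genes were called in 6694c2 and 3 in 6419c5. Over all genes, 990 were called in 6419c5, and 1498 with the macrophage covariate; 1169 were called for the difference between lines, and 765 without the 3 libraries and 752 without 6419c5 WT replicate 3. The split into higher and lower calls for the difference between lines was 776 and 393 as deposited, 507 and 814 with median-of-ratios scaling, 416 and 763 with quantile normalization, and 631 and 525 with the 20 most abundant genes removed, and between the WT groups 1894 and 4319, 2922 and 2816, and 3242 and 2568 for the first 3 of these.

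The replicate numbers showed no pairing of the samples when pooled over all groups. Deviations of same-numbered libraries correlated at -0.39 to 0.48 (median -0.04), and of libraries with other numbers at -0.63 to 0.66 (median 0.02). A pairing between particular groups was not tested. With the replicate number as a block, 6 genes were called in 6694c2, 3 in 6419c5, 2 for the difference between lines, 4 between the WT groups, 14 gene and clone pairs and 4 clone B against clone A pairs. TPM hold no depth, so the precision of low values such as those of Nrg1 and Ereg is unknown beyond the spread of 3 libraries.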
